A study of Mus musculus with 20 samples.

Results

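The genes described are 10 enzymes and chaperones that modify, fold and cross-link collagen: Lox, Loxl1, Loxl2 and Loxl3, Plod1, Plod2 and Plod3, P4ha1 and P4ha2, and Serpinh1. They were chosen by gene name among the non-control spots of the array, and they are 10 of 37074 gene names in the files. All 10 were among the 25619 genes tested, through 18 probes of which every one passed the filter on dim probes. The files hold 2 probes each for 8 of the genes and 1 each for Loxl1 and Loxl3.

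RNA was measured in visceral adipose tissue from the epididymal area of male F3 C57bl/6J mice, with 1 single-colour array per mouse. The Ref group (n = 6) came from the control lineage, whose diet carried high-oleic sunflower oil for 3 generations, and received a low-fat reference diet for 17 weeks. The HFoleic group (n = 6) came from the same lineage and received a high-fat, high-sucrose diet for the same time. The HFepa group (n = 8) received that high-fat diet too but came from the omega 3 lineage, whose diet carried a fish oil rich in eicosapentaenoic acid (EPA) over the 3 generations. The labels give these groups as STD Cont, HFD Cont and HFD O3. No mice of the omega 3 lineage on the low-fat diet were analysed here, so in HFepa vs. Ref the diet and the lineage cannot be told apart. Litters were not given, and the number of mice limits the precision of every value.

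A collagen chain is made in the endoplasmic reticulum, where prolyl 4-hydroxylases (P4ha1, P4ha2) hydroxylate prolines, which the triple helix needs to be stable, and lysyl hydroxylases (Plod1 to Plod3) hydroxylate lysines, on which sugars and later cross-links are placed. The chaperone HSP47, product of Serpinh1, binds the folded helix and goes with it towards the Golgi. Outside the cell, lysyl oxidases (Lox and the Lox-like enzymes) oxidize lysines of collagen and elastin, and the aldehydes they make join molecules into insoluble fibres. In adipose tissue these fibres form the mesh around the adipocytes, and fibroblasts and other stromal cells are the main producers of fibrillar collagen.

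The results on the lysyl oxidase-like genes rest on a few 60-base probes, and sequences of some of them are shown here. They are copied from the array's own annotation, 5′ to 3′, all in lower case since no part is singled out, with mm9 coordinates. The Loxl1 probe lies at chr9:58138570-58138629 on the minus strand and a Loxl2 probe at chr14:70090017-70090076 on the plus strand. This Loxl2 probe is the dimmer of 2, and Loxl2 was counted by the brighter, at chr14:70095254-70095313, whose sequence is not shown. The Loxl3 probe covers chr6:83000426-83000598 on the plus strand, a span of 173 bases, so its 60 bases come from more than 1 exon.
Loxl1: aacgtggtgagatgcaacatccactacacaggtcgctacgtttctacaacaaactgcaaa
Loxl2: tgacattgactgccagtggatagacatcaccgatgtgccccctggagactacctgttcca
Loxl3: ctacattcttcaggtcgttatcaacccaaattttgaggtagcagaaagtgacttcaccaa

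Values are log2 intensities after quantile normalization. A gene was counted by its brightest probe and called at an adjusted p under 0.05 from the limma model of all 20 arrays, adjusted by Benjamini–Hochberg across the 39392 probes tested. Levels of different probes are not comparable with each other. The median raw signal of an array was 83 to 114, the scanner software called 66.06% to 71.88% of spots well above background, and saturation was found at 0 spots. The adipocyte markers Adipoq and Plin1 had mean levels of 18.09 and 15.20 over all mice. Of the 8 epididymis markers 2 passed the filter, and of the 6 testis markers 4 did, and single mice stood apart on these lists. The mean testis list level was 8.27 in Ref mouse 3, 8.41 in Ref mouse 6, 9.06 in HFoleic mouse 5 and 8.10 in HFepa mouse 4, and 5.86 to 6.60 in the other mice. On the epididymis list Ref mouse 3 was at 8.11, Ref mouse 6 at 7.10 and HFepa mouse 2 at 8.36, and the others at 5.20 to 6.42. These 5 mice, each above a mean of 7 on one of the lists, were chosen after seeing the data; counts of genes called are given with and without them, and the part of this RNA in the values was not tested. All 3 slides held arrays of every group.

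The high-fat diet in the control lineage was compared with the low-fat diet in the same lineage. In HFoleic vs. Ref, 8 of the 10 genes were higher in the HFoleic mice and none was lower, where 15.2% of all genes tested were called higher, 16.6% lower and 31.8% in either direction. Serpinh1, Loxl1 and Loxl2 had the largest differences, with folds of 2.01, 1.89 and 1.45, while Loxl3, Plod1, Plod2, Plod3 and P4ha1 differed by 1.21-fold to 1.31-fold. Lox and P4ha2 were not called. In bulk tissue, a change in the number of cells of a type and a change in RNA per cell cannot be told apart. The median log2 fold change of the 10 genes was 0.36, beside -0.04 over all genes tested. On each of the 3 slides all 8 called genes were higher in HFoleic than in Ref, by 0.17 to 1.44 on the log2 scale, where slide 2 held a single HFoleic mouse, mouse 4, which gave the 1.44 (Loxl1). Without the 5 mice that stood apart on the testis or epididymis list, 4 Ref and 5 HFoleic mice remained and 3 genes were called, Loxl1 (0.79, adjusted p = 0.0284), P4ha1 (0.35, adjusted p = 0.0473) and Serpinh1 (0.89, adjusted p = 0.0181). The other 5 stayed positive, at 0.20 to 0.36, with adjusted p from 0.0513 to 0.197. Over all 39392 probes tested, 6371 were called without these mice and 12122 with them.

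**Figure D1:**
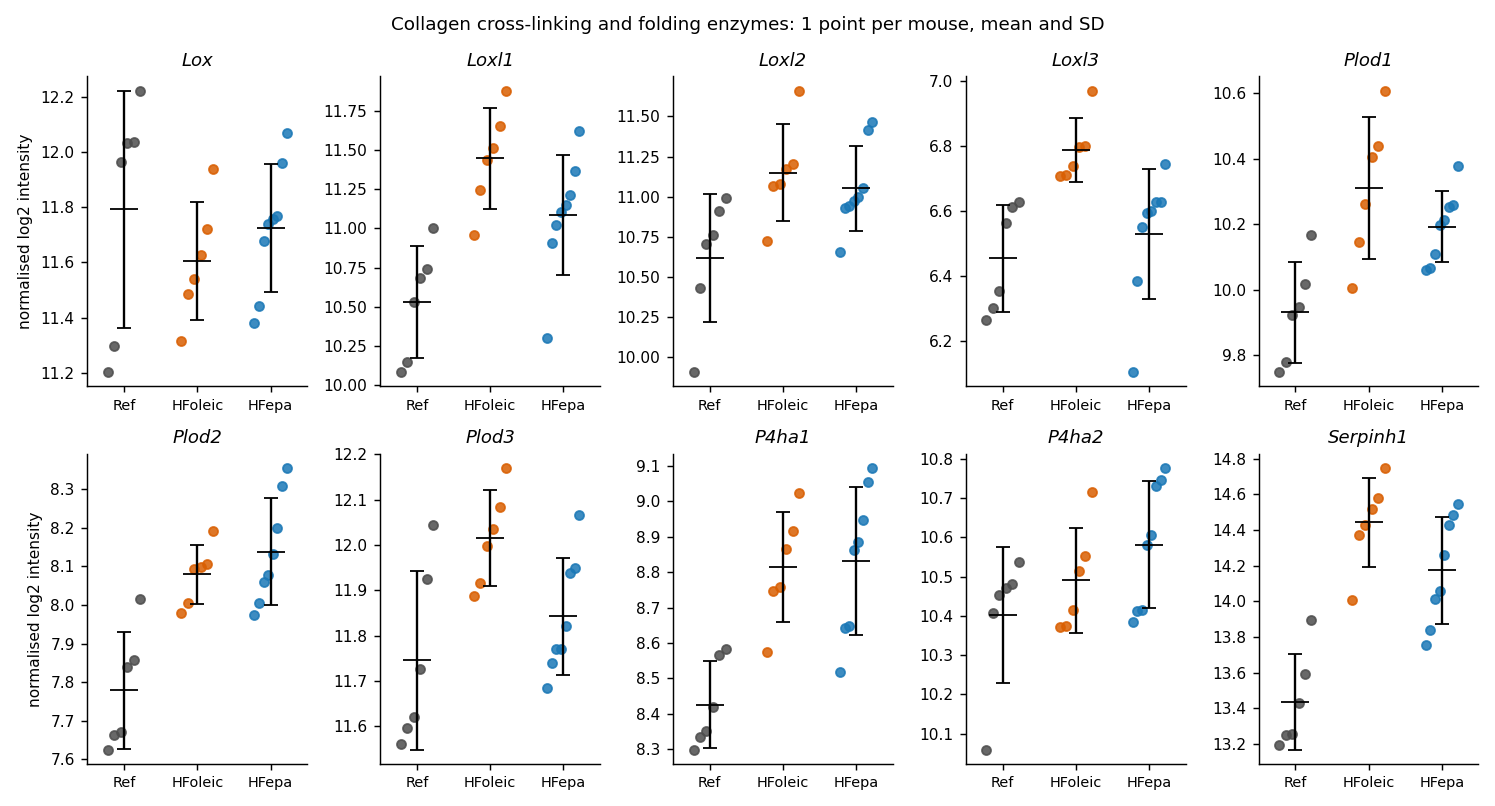
Normalised log2 intensity (vertical axis, its own range in each panel) of the brightest probe of each gene in the Ref (n = 6), HFoleic (n = 6) and HFepa (n = 8) groups, with 1 point per mouse and bars for the mean and SD. Every HFoleic mouse lies above every Ref mouse for Loxl3 and Serpinh1, and these 2 groups overlap for the other 8 genes.

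Serpinh1, the collagen chaperone, was measured at chr7:106493971-106494030 on the minus strand. Its log2 intensity was 13.20 to 13.90 in the Ref mice (median 13.34), 14.01 to 14.75 in the HFoleic mice (median 14.47) and 13.76 to 14.55 in the HFepa mice (median 14.16). No HFoleic mouse overlapped with Ref, and 6 of 8 HFepa mice lay above the highest Ref mouse. Against Ref, the HFoleic mice were higher by a log2 fold change of 1.00 (SE 0.15, limma adjusted p = 0.000392) and the HFepa mice by 0.74 (SE 0.14, adjusted p = 0.0181). Between the high-fat groups the difference was -0.27 with a 95% interval of -0.57 to 0.03 (adjusted p = 0.292). A second probe for this name lies 31 bases away at chr7:106494061-106494120 and is given on the opposite, plus strand, so an overlapping or antisense transcript cannot be told apart there. That probe read 5.69 to 5.97 in Ref, 5.94 to 6.62 in HFoleic and 5.90 to 6.34 in HFepa. It also rose in HFoleic vs. Ref, by 0.60 (SE 0.10, adjusted p = 0.000477), and its difference of 0.32 in HFepa vs. Ref was not called (adjusted p = 0.0604).

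Of the 4 lysyl oxidases among the 10 genes, 3 were called higher in HFoleic vs. Ref, where 15.2% of all genes tested were. Loxl4, a lysyl oxidase outside the 10 genes, was not called (0.19, adjusted p = 0.132). Loxl1, the enzyme tied to elastic fibre upkeep, read 10.08 to 11.00 in Ref (median 10.61), 10.96 to 11.88 in HFoleic (median 11.48) and 10.30 to 11.62 in HFepa (median 11.13). In 5 of 6 HFoleic mice and 6 of 8 HFepa mice it was above the highest Ref mouse. Its rise in HFoleic vs. Ref was 0.92 on the log2 scale (SE 0.20, adjusted p = 0.00199). For HFepa vs. Ref it was 0.55, which was not called (SE 0.18, adjusted p = 0.0991), and for HFepa vs. HFoleic -0.36 (95% interval -0.74 to 0.02).

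Loxl2, which acts on the collagen IV of basement membranes as well as on fibrillar collagen, has 2 probes on the plus strand. The brighter, at chr14:70095254-70095313, read 9.91 to 10.99 in Ref (median 10.73), 10.72 to 11.66 in HFoleic (median 11.12) and 10.66 to 11.46 in HFepa (median 10.98). Its log2 fold change in HFoleic vs. Ref was 0.53 (SE 0.17, adjusted p = 0.0261). The call was lost without Ref mouse 5 (adjusted p = 0.0543), Ref mouse 6 (adjusted p = 0.0668) or HFoleic mouse 4 (adjusted p = 0.0743). The dimmer probe, printed above, read 8.01 to 8.77 in Ref and 9.002 to 9.48 in HFoleic, with no overlap. It gave a log2 fold change of 0.70 (SE 0.14, adjusted p = 0.00118). In HFepa its range was 8.39 to 9.17, which overlaps both other groups, and neither Loxl2 probe was called in HFepa vs. Ref (adjusted p = 0.14 and 0.1).

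Loxl3, a further collagen- and elastin-oxidizing member of the family, read 6.26 to 6.63 in Ref (median 6.46), 6.71 to 6.97 in HFoleic (median 6.77) and 6.10 to 6.74 in HFepa (median 6.60). The HFoleic mice lay above all Ref mice, and 2 of 8 HFepa mice did. On the log2 scale it rose by 0.33 in HFoleic vs. Ref (SE 0.09, adjusted p = 0.0118) and stood at 0.07 in HFepa vs. Ref (95% interval -0.11 to 0.26). Groups that did not overlap, with HFoleic higher, were found for 2 of the 10 genes by the brightest probe and for 6.93% of all genes tested.

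Lox, the founding member of the family, was not called by either probe in any comparison. The brighter probe read 11.20 to 12.22 in Ref (median 12.00), 11.32 to 11.94 in HFoleic (median 11.58) and 11.38 to 12.07 in HFepa (median 11.75). The groups overlapped, and all HFoleic and HFepa mice lay within the range of the Ref mice. The log2 fold change in HFoleic vs. Ref was -0.19 (95% interval -0.53 to 0.16, adjusted p = 0.419). For the dimmer probe it was -0.39 (95% interval -0.69 to -0.08), just above the threshold (adjusted p = 0.0532).

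The 3 lysyl hydroxylases were each called higher in HFoleic vs. Ref by the brightest probe, where 15.2% of all genes tested were. Plod1 read 9.75 to 10.17 in Ref (median 9.94), 10.01 to 10.61 in HFoleic (median 10.33) and 10.06 to 10.38 in HFepa (median 10.21). All HFoleic and HFepa mice were above the Ref mean, with overlap at the edges. Its log2 fold change was 0.38 (SE 0.09, adjusted p = 0.00462) in HFoleic vs. Ref and 0.26 (SE 0.09, adjusted p = 0.102) in HFepa vs. Ref. The dimmer Plod1 probe went the other way in HFoleic vs. Ref, with a fall by 0.31 (adjusted p = 0.0404).

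Plod2, the enzyme that hydroxylates the lysines of collagen telopeptides, read 7.63 to 8.02 in Ref (median 7.76), 7.98 to 8.19 in HFoleic (median 8.10) and 7.97 to 8.35 in HFepa (median 8.10). In 4 of 6 HFoleic mice and 6 of 8 HFepa mice it was above the highest Ref mouse. It was called in both comparisons with Ref, with a log2 fold change of 0.30 (SE 0.08, adjusted p = 0.00619) for HFoleic and 0.36 (SE 0.07, adjusted p = 0.0214) for HFepa. The 2 high-fat groups differed by 0.06, with a 95% interval of -0.09 to 0.21. The dimmer Plod2 probe was at -0.26 in HFoleic vs. Ref, which was not called (adjusted p = 0.0757).

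Plod3, which also adds glucose to galactosylated hydroxylysine, read 11.56 to 12.05 in Ref (median 11.67), 11.89 to 12.17 in HFoleic (median 12.02) and 11.68 to 12.07 in HFepa (median 11.80). Only 2 HFoleic mice and 1 HFepa mouse lay above the highest Ref mouse. The log2 fold change was 0.27 in HFoleic vs. Ref (SE 0.09, adjusted p = 0.0223) and 0.10 in HFepa vs. Ref (adjusted p = 0.533). The first call was lost on the processed signal (adjusted p = 0.0516) and without Ref mouse 3, 5 or 6 or HFoleic mouse 4 (adjusted p = 0.052 to 0.0585). The dimmer probe, whose 60 bases span 169 bases of genome, gave 0.40 in HFoleic vs. Ref (SE 0.15, adjusted p = 0.0435).

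P4ha1, a catalytic subunit of prolyl 4-hydroxylase, read 8.30 to 8.58 in Ref (median 8.39), 8.58 to 9.02 in HFoleic (median 8.81) and 8.52 to 9.09 in HFepa (median 8.87). In 5 of 6 HFoleic mice and 7 of 8 HFepa mice it lay above the highest Ref mouse. It rose by 0.39 in the HFoleic mice (log2 scale, SE 0.10, adjusted p = 0.00571) and by 0.40 in the HFepa mice (SE 0.09, adjusted p = 0.0304), each against Ref. Between the high-fat groups it was 0.02 (95% interval -0.17 to 0.21).

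P4ha2, the other catalytic subunit measured, read 10.06 to 10.54 in Ref (median 10.46), 10.37 to 10.72 in HFoleic (median 10.46) and 10.39 to 10.78 in HFepa (median 10.59). The groups overlapped, and 5 of 8 HFepa mice lay above the highest Ref mouse. The log2 fold change was 0.09 in HFoleic vs. Ref (95% interval -0.10 to 0.28, adjusted p = 0.501) and 0.18 in HFepa vs. Ref (adjusted p = 0.238). The third catalytic subunit, P4ha3, was near the lower end of the intensities, with 5.42 to 5.84 in Ref and 5.40 to 5.81 in HFoleic, and was not called (adjusted p = 0.786).

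**Figure D2:**
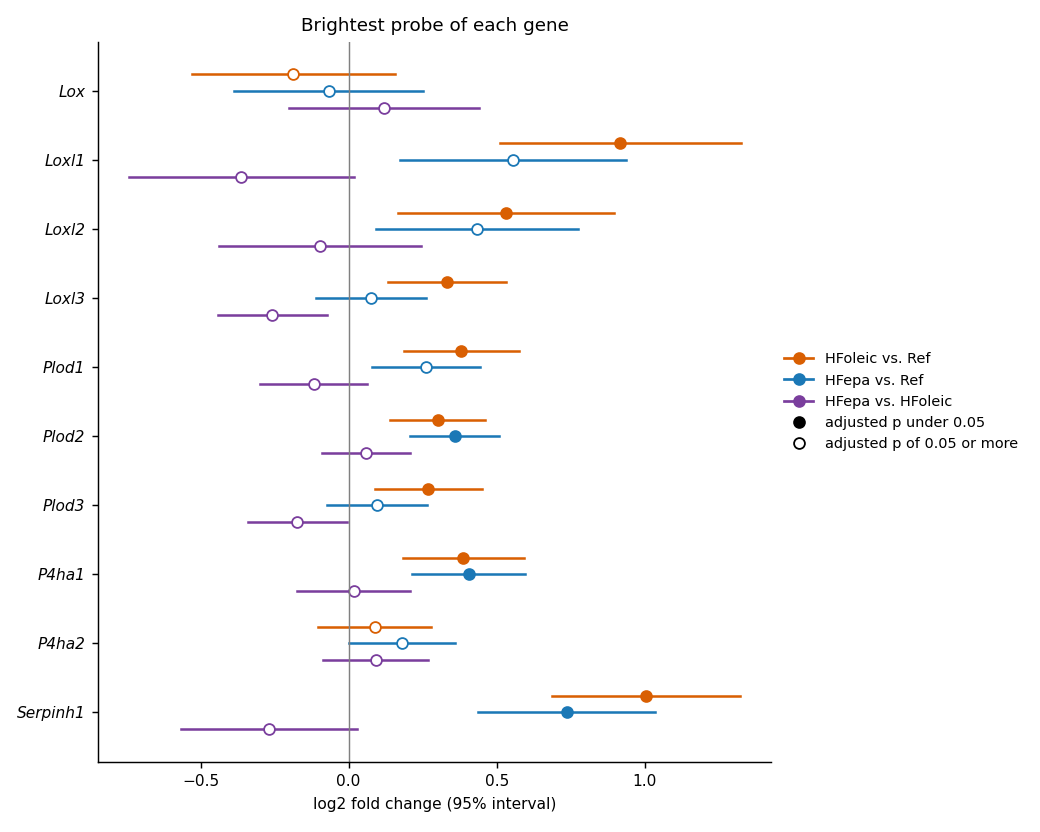
Log2 fold change (horizontal axis) of the brightest probe of each gene in the 3 comparisons, as points with 95% intervals, filled where the limma adjusted p was under 0.05. For Plod2 and P4ha1 the points of the comparisons with Ref lie close together (0.30 and 0.36, 0.39 and 0.40), while for Loxl3 they are 0.33 and 0.07.

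The same 3 groups were then compared with the omega 3 lineage in view. In HFepa vs. Ref 3 of the 10 genes were called, Plod2, P4ha1 and Serpinh1, all higher, where 1.04% of all genes tested were called higher and 2.46% in either direction. Before adjustment 7 of the 10 had p under 0.05, all higher, beside 10% of all genes. The median log2 fold change of the 10 genes was 0.31, beside -0.02 over all genes. On each slide the 3 called genes were higher in HFepa than in Ref. These calls depend on single mice: 1 was left without Ref mouse 3 (Plod2), none without Ref mouse 6 (adjusted p = 0.055 to 0.0803), and with HFepa mouse 8 left out Loxl1 was called too (adjusted p = 0.0319). Plod2 was also lost without Ref mouse 4, and P4ha1 without Ref mouse 5 or HFepa mouse 1, 5 or 6 (adjusted p = 0.0509 to 0.066). Without the 5 mice that stood apart on the testis or epididymis list, none was called (Plod2 0.36, P4ha1 0.38, Serpinh1 0.69, adjusted p = 0.12 to 0.141), and 0 of all probes were.

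In HFepa vs. HFoleic none of the 10 genes was called, as 0% of all genes tested were. By the brightest probe, 2 were lower in HFepa at an unadjusted limma p under 0.05, Loxl3 (-0.26, 95% interval -0.44 to -0.07) and Plod3 (-0.17). At that threshold 10% of all genes were lower. The second probes went both ways there, with none called after adjustment. Those of Plod1 (0.29), Plod2 (0.30) and P4ha2 (0.15) were higher in HFepa, and those of Loxl2 (-0.31), Plod3 (-0.37) and Serpinh1 (-0.27) lower. The 2 probes of Plod1 thus had opposite signs. With array weights Loxl3 was called at -0.27 (adjusted p = 0.0397). The HFepa mean lay between the means of Ref and HFoleic for 7 of the 10 genes, beside 64.2% of all genes tested, and for Plod2, P4ha1 and P4ha2 it lay above both. These comparisons share mice, and a p that misses the threshold does not show that the high-fat groups were alike.

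Several of the genes moved differently by their second probe. In HFoleic vs. Ref the signs of both probes were the same for 5 of the 8 genes with 2 probes and opposite for Plod1, Plod2 and P4ha2. The dimmer Plod1 probe, designed on another transcript (ENSMUST00000124292) at chr4:147299330-147299389, read 7.61 to 8.18 in Ref, 7.31 to 7.64 in HFoleic and 7.38 to 8.20 in HFepa. It fell by 0.31 in HFoleic vs. Ref (SE 0.11, adjusted p = 0.0404), against the rise of the brighter probe at chr4:147284321-147284380. The dimmer Plod2 probe, on ENSMUST00000190075 at chr9:92497396-92497455, read 7.14 to 7.64 in Ref, 6.97 to 7.32 in HFoleic and 7.16 to 7.76 in HFepa, a log2 fold change of -0.26 that was not called (adjusted p = 0.0757). For P4ha1 the dimmer probe, whose 60 bases span 3351 bases of genome, gave 0.10 in HFoleic vs. Ref (95% interval -0.15 to 0.35).

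The dimmer P4ha2 probe was above background on 6 of 20 arrays, the fewest the filter accepts, and HFoleic vs. Ref gave -0.12 there (log2, adjusted p = 0.256). With both probes averaged in place of the brightest, Plod1 (0.03), Plod2 (0.02) and P4ha1 (0.24) were no longer called, which left 5 genes called in HFoleic vs. Ref and 1, Serpinh1, in HFepa vs. Ref. The files do not say which exon or untranslated region a probe lies in.

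**Figure D3:**
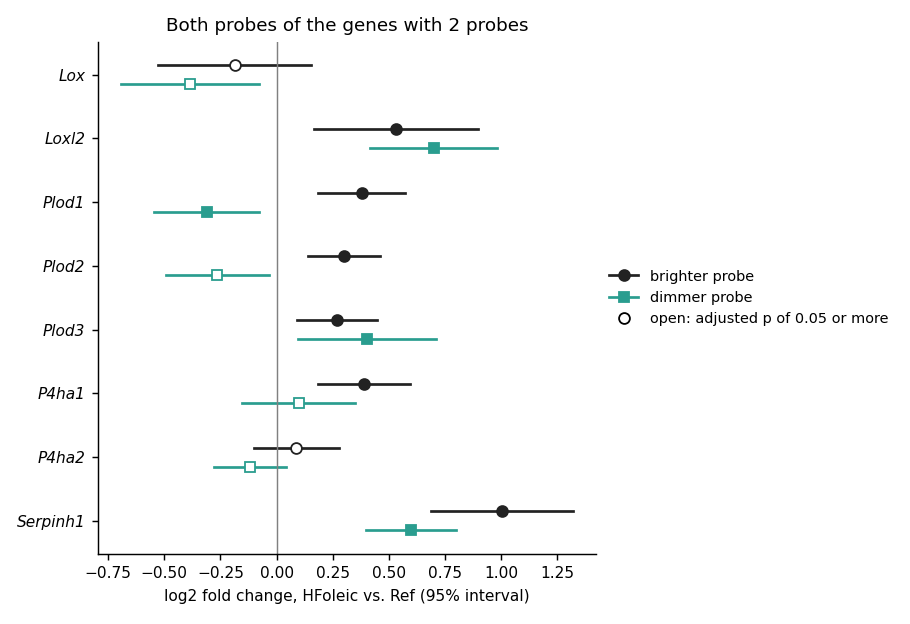
Log2 fold change in HFoleic vs. Ref (horizontal axis) for both probes of the 8 genes that have 2, as points with 95% intervals, circles for the brighter and squares for the dimmer probe, filled where the limma adjusted p was under 0.05. The probes of Plod1 lie on opposite sides of 0 at 0.38 and -0.31, and those of Plod2 at 0.30 and -0.26.

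Mice within a group differed in the same direction for several of the genes. HFoleic mouse 4 was the highest of its group for 8 of the 10 genes, and HFoleic mouse 1 was the lowest for 7. This order was not particular to the 10 genes. On lists described below, mice 4 and 1 had the highest and lowest HFoleic means for substrates (13.60 and 12.74) and macrophage markers (13.32 and 12.31). For adipocyte markers the order was reversed (16.57 and 17.22). On the partner list mouse 8 (10.72) was above mouse 4 (10.71). Among the Ref mice, mouse 7 was the highest for 5 genes and mouse 6 the lowest for 4. No HFepa mouse was the highest for more than 3 genes, while HFepa mouse 8 was the lowest for 4.

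**Figure D4:**
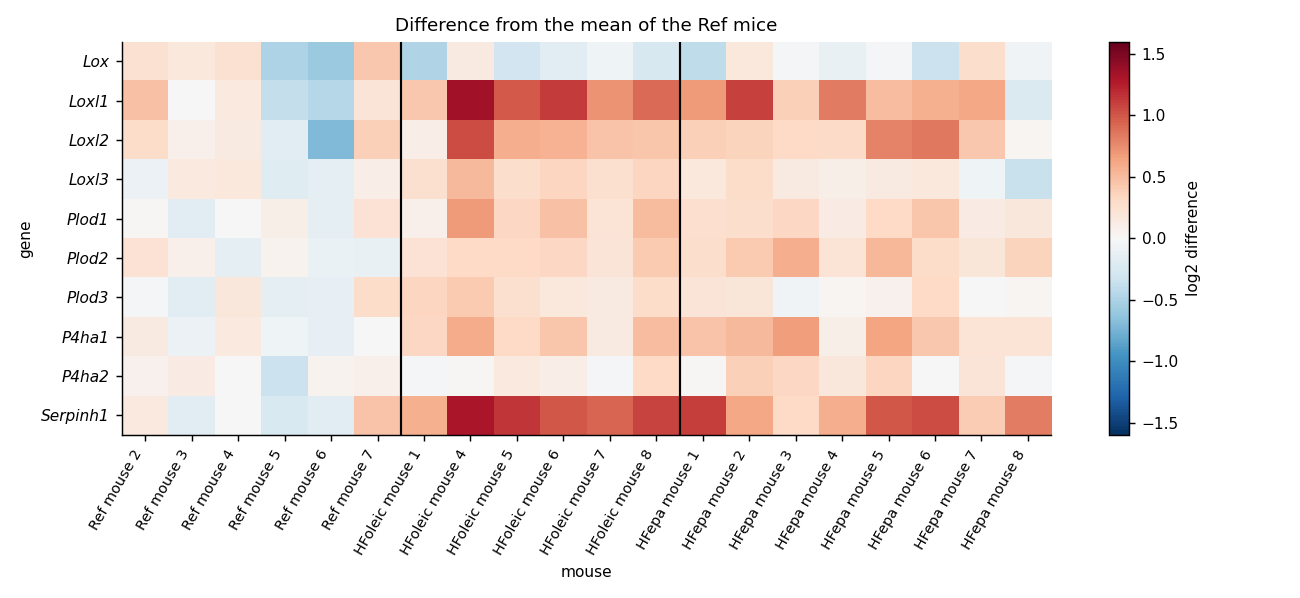
Log2 difference from the mean of the Ref mice (colour, red higher and blue lower) for each gene (rows) in each mouse (columns), with black lines between the groups. Values run from -0.71 to 1.35, and the darkest red is in the Loxl1 and Serpinh1 rows of HFoleic mouse 4.

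The promoters of P4ha1, P4ha2 and Serpinh1 are shown because P4ha1 and Serpinh1 were called in both comparisons with Ref and P4ha2 in neither, and because prolyl 4-hydroxylases are known targets of the hypoxia-inducible factor. Of the 10 genes 5 had a promoter in the RefSeq table used here (GRCm38.p6). The 250 bases before the start were searched on both strands for the hypoxia response cores ACGTG and GCGTG and for the heat shock element core GAANNTTC. ACGTG can overlap its own complement in CACGTG, and such overlaps were counted at each position. Either hypoxia core was found in 38.6% of the 32851 promoters, ACGTG in 16.6% and GCGTG in 28.2%, and the heat shock core in 6.69%. Capitals mark the matches, and CACGT and CACGC are the cores read on the other strand. P4ha1 lies at chr10:59323046-59323295 on the plus strand, P4ha2 at chr11:54100674-54100923 on the plus strand and Serpinh1 at chr7:99353240-99353489 on the minus strand.
P4ha1: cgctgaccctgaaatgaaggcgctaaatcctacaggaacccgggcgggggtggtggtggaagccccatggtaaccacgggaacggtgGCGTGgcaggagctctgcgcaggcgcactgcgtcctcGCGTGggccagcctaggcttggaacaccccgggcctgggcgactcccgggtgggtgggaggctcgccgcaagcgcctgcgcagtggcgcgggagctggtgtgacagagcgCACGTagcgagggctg
P4ha2: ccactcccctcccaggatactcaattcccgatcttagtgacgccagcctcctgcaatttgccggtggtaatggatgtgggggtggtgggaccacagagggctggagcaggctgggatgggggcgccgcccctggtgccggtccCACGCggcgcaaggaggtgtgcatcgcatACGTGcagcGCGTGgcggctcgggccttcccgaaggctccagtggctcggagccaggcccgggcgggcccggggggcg
Serpinh1: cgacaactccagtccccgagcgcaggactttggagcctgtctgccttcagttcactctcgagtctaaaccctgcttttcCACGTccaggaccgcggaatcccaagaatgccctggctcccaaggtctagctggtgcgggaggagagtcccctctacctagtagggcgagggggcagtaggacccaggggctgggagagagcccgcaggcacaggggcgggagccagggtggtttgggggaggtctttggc

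P4ha1 and P4ha2 each held 3 hypoxia cores, 1 of ACGTG and 2 of GCGTG, and Serpinh1 held 1 of ACGTG. Plod1 held 1 and Plod3 held 4. The heat shock core was not in these 5 windows. A match describes letters only, and whether any of these cores is used in this tissue was not tested.

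Genes known to respond to hypoxia, by a fixed list of 14, moved in both directions in HFoleic vs. Ref. Higher were 3, Car9, Pgk1 and Hif1a, and lower were 4, Vegfa, Pdk1, Bnip3 and Ndrg1, with a list median of -0.02. Over all genes tested 15.2% were called higher and 16.6% lower. Car9, a carbonic anhydrase, read 5.55 to 6.33 in Ref and 6.60 to 8.22 in HFoleic, a log2 fold change of 1.58 (SE 0.36, adjusted p = 0.00309). Vegfa, the growth factor for vessels, read 13.14 to 13.91 in Ref and 12.34 to 12.98 in HFoleic, a fall by 0.81 (SE 0.18, adjusted p = 0.00264). For both genes the 2 groups did not overlap. In the list that held for 4 of the 14 genes, 1 with HFoleic higher and 3 lower. Of all 25619 genes tested, 1776 (6.93%) had HFoleic higher without overlap and 1811 had it lower. Pdk1, a kinase that restrains pyruvate oxidation, fell in HFoleic vs. Ref by 0.57 (adjusted p = 0.000449) and was the single gene of the list called in HFepa vs. Ref, where it fell by 0.44 (adjusted p = 0.0158).

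Of the 14 further family members and partners of the 10 genes, 5 rose and none fell in HFoleic vs. Ref, with a median log2 fold change of 0.17. In that comparison 15.2% of all genes tested were called higher. Colgalt1, which puts galactose on hydroxylysine, rose by 0.79 (SE 0.15, adjusted p = 0.0011), from 13.28 to 13.58 in the Ref mice to 13.79 to 14.39 in the HFoleic mice, with no overlap. Groups did not overlap, with HFoleic higher, for 4 of the 14 partners and for 6.93% of all genes tested. P4hb, the disulfide isomerase that is the second subunit of prolyl 4-hydroxylase, rose by 0.34 (adjusted p = 0.00701). Fkbp14, a prolyl isomerase of the endoplasmic reticulum, rose by 0.31 (adjusted p = 0.00583), and Sparc, a collagen-binding matrix protein, by 0.27 (adjusted p = 0.00209). Ppib, cyclophilin B, was the fifth. P3h4, by its name a prolyl 3-hydroxylase family member, was at -0.33 (adjusted p = 0.058), and Loxl4, the remaining lysyl oxidase, at 0.19 (adjusted p = 0.132). In HFepa vs. Ref Sparc alone was called (0.21, adjusted p = 0.0462), and the number of partners called was 0 to 3 with 1 mouse left out, other than 1 in 17 of 20 fits.

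Of the 12 genes for export and processing of procollagen 10 were tested, and 6 rose and none fell in HFoleic vs. Ref, with a median of 0.45. Among all genes tested 15.2% were called higher. Pcolce2, an enhancer of the protease that removes the C-propeptide, read 9.99 to 11.29 in Ref and 11.76 to 12.96 in HFoleic, a log2 fold change of 1.75 (SE 0.30, adjusted p = 0.00058). These groups did not overlap, which held for 1 of the 10 export genes and, with HFoleic higher, for 6.93% of all genes tested. Pcolce, a relative of Pcolce2, rose by 0.72 (adjusted p = 0.00219) and the protease gene Tll1 by 0.63 (adjusted p = 0.00771). Sec24d, a coat protein of the vesicles that carry procollagen, rose by 0.58 (adjusted p = 0.00115). None of these genes was called in HFepa vs. Ref, where 4 had an unadjusted limma p under 0.05, all higher, beside 10% of all genes tested. Of the 12 substrates, 11 rose in HFoleic vs. Ref and Eln fell, with a median of 1.102. The shares of all genes tested were 15.2% called higher and 16.6% called lower.

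Among the substrates Col6a2 had the largest difference, from 10.01 to 11.74 in Ref to 11.80 to 12.74 in HFoleic, a log2 fold change of 1.81 (SE 0.30, adjusted p = 0.000483). Col6a1 rose by 1.58 (adjusted p = 0.00046), Col1a1 by 1.49 (adjusted p = 0.000455) and Col5a1 by 1.25 (adjusted p = 0.000404). For these 4 collagen genes, named for the smallest p in this comparison, no HFoleic mouse overlapped with Ref. Groups did not overlap, with HFoleic higher, for 7 of the 12 substrates and for 6.93% of all genes tested. Eln, the elastin that Lox and Loxl1 act on, fell by 0.47 (adjusted p = 0.0434) and was chosen for mention after its value was seen. In HFepa vs. Ref Col6a1 alone was called (0.96, adjusted p = 0.0396), while 0 to 7 substrates were called with 1 mouse left out. Before adjustment 9 of the 12 had an unadjusted limma p under 0.05, all higher, beside 10% of all genes tested. In HFepa vs. HFoleic none of the genes in these lists was called. At an unadjusted limma p under 0.05, 9 substrates were lower in HFepa, beside 10% of all genes tested. Without the 5 mice that stood apart on the testis or epididymis list, 2 partners, 3 export genes, 8 substrates and 5 hypoxia-responsive genes were called in HFoleic vs. Ref. Of all probes tested 6371 were called without these mice and 12122 with them. The count of 0 in HFepa vs. HFoleic depended on single mice: without HFepa mouse 1, 3 substrates, 4 hypoxia-responsive genes and 1 partner were called, and without HFoleic mouse 1, 2 substrates, 2 export genes and 1 hypoxia-responsive gene. With HFepa mice 1 and 6 both left out, 8 substrates were called. Over all 39392 probes tested, 5903 were called in that fit and 2859 without HFepa mouse 1 alone, against 1 with all mice.

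**Figure D5:**
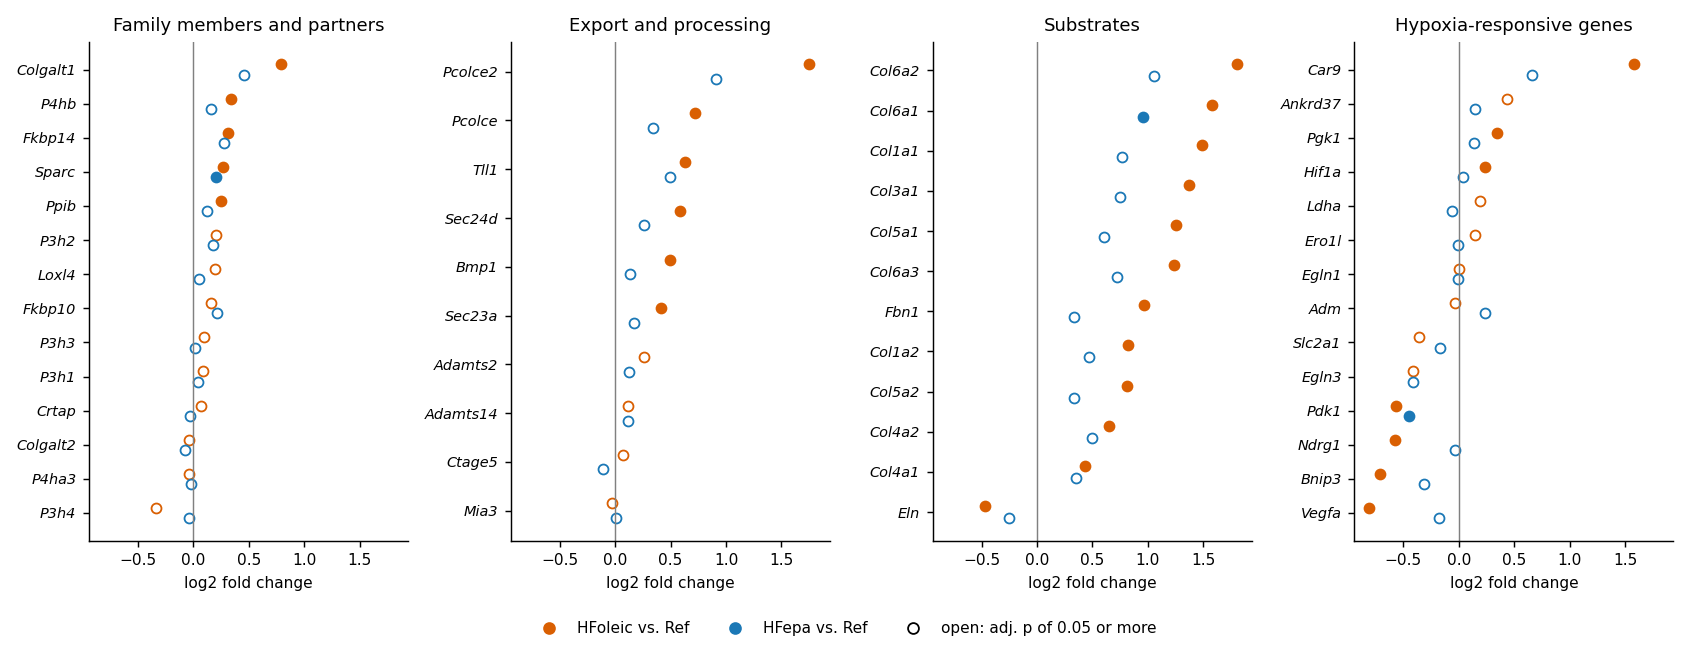
Log2 fold change (horizontal axis) of each tested gene of 4 lists in HFoleic vs. Ref and HFepa vs. Ref, filled where the limma adjusted p was under 0.05. All substrates except Eln lie to the right of 0 in both comparisons, and the hypoxia-responsive genes lie on both sides.

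Some cell type markers moved in HFoleic vs. Ref too, where 15.2% of all genes tested were called higher and 16.6% lower. Of 9 macrophage markers 6 were called higher in HFoleic vs. Ref and 1 lower, and the mean level of the list was 11.57 to 12.00 in Ref, 12.31 to 13.32 in HFoleic and 11.48 to 13.28 in HFepa. Of 9 fibroblast progenitor markers 4 were called higher and none lower, with list levels of 12.30 to 12.86 in Ref, 12.71 to 13.17 in HFoleic and 12.31 to 12.87 in HFepa. These markers went both ways in HFoleic vs. Ref, 6 with a positive and 3 with a negative log2 fold change. At an unadjusted limma p under 0.05, 1 was lower. The groups did not overlap for 2 that were higher and 1 that was lower, beside 1776 higher and 1811 lower of all 25619 genes tested. The brightest fibroblast marker, Dcn, was at -0.07 (adjusted p = 0.694). Of 8 adipocyte markers 3 were lower, and the list level was 17.10 to 17.35 in Ref, 16.57 to 17.22 in HFoleic and 16.68 to 17.25 in HFepa. None of the endothelial, smooth muscle, mesothelial, T cell and epididymis markers tested was called in HFoleic vs. Ref, and 1 of 4 testis markers was called lower. None of the markers in these lists was called in HFepa vs. Ref. Their part in the values of the 10 genes was not tested.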

How the data were processed

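RNA of 20 mice was hybridized to 1 Agilent single-colour array each. The authors extracted spot intensities with Agilent Feature Extraction 10.10.1.1, and the deposited median intensity is linear and not normalized. A filtered and quantile-normalized log2 table, also made by the authors, correlated with the values used here at r = 0.99998 or more and served as an alternative. The log2 of the median intensity was taken with no background subtraction, which draws the differences of dim probes towards 0, and quantile normalized in R 4.3.3 with limma 3.58.1. Control spots were left out, spots marked as non-uniform or outliers were missing on that array (25 values), and spots of 1 probe were averaged. Probes called above background by the software on 6 or more arrays were tested (39392 probes). One limma model with a mean per group (lmFit, eBayes) was fitted to all arrays, as in the study's methods, with Benjamini–Hochberg adjustment. Tested on simulated data, 200 probes changed by log2 1 were recovered in 88% of cases when HFoleic was set against Ref, in 92.5% when HFepa was, and in 91% between the 2 high-fat groups. The simulated noise was independent between probes and arrays. Most of the 10 genes differed by less than log2 1, and recovery of smaller changes was not tested.

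The 10 gene names are all current symbols of RefSeq (GRCm38.p6). Coordinates of probes are those of the files (mm9), and those of promoters are from RefSeq. The 10 genes and the lists were chosen with earlier results of these data known. Named were the 10 genes with every probe; Loxl4, P4ha3 and P4hb; in each of 4 lists the 4 genes with the smallest p in HFoleic vs. Ref, the 2 with the smallest p in HFepa vs. HFoleic and the largest change; the brightest and dimmest markers; and Adipoq and Plin1 as a check of the tissue. Not all are printed. Ppib, Pgk1, Hif1a and Eln fall outside this rule and were named after their values were seen. Labels do not say whether the mice came from separate litters. No 2 arrays of a group were duplicates (smallest median difference 0.114). Alternatives were other signals, scalings and filters, marked spots kept, the slide or replicate number as a block, array weights, the compared groups alone, the mean of all probes, and each array left out. Plots were drawn with matplotlib 3.10.9.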

Additional observations from a re-analysis of the deposited data

Results flagged for a closer look

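Of 30 sets of values, the 10 genes in each of 3 groups by their brightest probe, 2 held a mouse far from the others, and chance alone marks about 1 in 20. Loxl3 in HFoleic mouse 4 was 6.97, with the next mouse at 6.80 and the lowest at 6.71. P4ha2 in Ref mouse 5 was 10.06, with the next mouse at 10.41 and the highest at 10.54.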

How the results depend on the processing

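Under 14 alternatives other than leaving out single arrays, 391 of 420 values of single genes kept their direction and their side of the threshold, 6 reversed, 22 lost a call and 1 gained it. The 8 genes called in HFoleic vs. Ref became 5 with the mean of all probes, 3 without the 5 mice that stood apart on the testis or epididymis list, which leaves fewer arrays, and 6 to 8 with 1 array left out. The 3 called in HFepa vs. Ref became 1 with the compared groups alone, 1 with the mean of all probes, 0 to 4 with 1 array left out, 0 without those 5 mice, and 0 without HFepa mice 1 and 6, which lay nearest to the HFoleic group over all probes. Both of these sets of mice were chosen after seeing the data. None was called in HFepa vs. HFoleic, against 1 with array weights and 0 in each fit with 1 array left out. With the replicate number as a block, 7, 1 and 0 genes were called, and Plod3 was not called in HFoleic vs. Ref (adjusted p = 0.123). Of 16 same-numbered pairs of mice from different groups, 5 correlated above 0.1 (r from -0.586 to 0.56). Among 116 differently numbered pairs 45 did (r from -0.483 to 0.798). These correlations do not settle whether the numbers pair the mice. Values that reversed were near 0 and not called: P4ha2 in HFoleic vs. Ref (-0.015 with the mean of all probes), Lox in HFepa vs. Ref (0.000196 with the replicate block, 0.036 without HFepa mice 1 and 6), and in HFepa vs. HFoleic Plod1 (0.087 with the mean of all probes) and P4ha1 (-0.021 with the replicate block, -0.023 with array weights). With 1 array left out, Lox in HFepa vs. Ref ran from -0.19 to 0.018, and in HFepa vs. HFoleic Loxl2 ran from -0.18 to 0.0057 and P4ha1 from -0.031 to 0.062. The cause was not tested. Over all alternatives, single arrays left out included, the probes called ranged from 6371 to 16005 in HFoleic vs. Ref (12122 in the reported fit), from 0 to 2495 in HFepa vs. Ref (896, falling to 130 when Ref mouse 6 was left out and rising to 2495 when HFepa mouse 3 was) and from 0 to 5903 in HFepa vs. HFoleic (1, with 2859 without HFepa mouse 1). Genes called in the lists of partners, export, substrates and hypoxia ranged from 2 to 9, 3 to 7, 8 to 12 and 4 to 9 in HFoleic vs. Ref, from 0 to 3, 0 to 1, 0 to 7 and 0 to 1 in HFepa vs. Ref, and from 0 to 1, 0 to 4, 0 to 8 and 0 to 4 in HFepa vs. HFoleic. The dimmer P4ha2 probe is close to background and holds little information.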
